A study of Macaca fascicularis with 6 samples.

Results

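The cartilage organoids described here were made from monkey stem cells and were profiled cell by cell. Some were profiled from culture, before transplantation, and others after 4 months in a knee joint, so the samples are not paired. The comparison covered 640 of the 7007 distinct cells in the series, namely 320 cells of pre-transplant cyiPS-Cart and 320 cells of post-transplant cyiPS-Cart, and they were taken by the library and hashtag prefixes of the cell names. The organoids (cyiPS-Cart) were grown from 1466A1, 1 line of cynomolgus monkey induced pluripotent stem cells (cyiPSCs) that carries an EGFP reporter gene under a constitutive promoter. Both samples therefore share this line and its reporter. Pre-transplant cyiPS-Cart was taken from culture, and post-transplant cyiPS-Cart was an allogeneic graft recovered from chondral defects of knee articular cartilage in recipients aged 3 to 4 years, from which 2 transplanted sites per monkey were combined. The label of the graft names the genotype as wild type, which is that of the recipient. Articular cartilage of wild type animals of the same labelled age (cyAC) and fibrous tissue that had formed in unfilled defects (cyFT), 320 cells each, gave levels to set beside the organoid's.

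Articular cartilage is a tissue of chondrocytes spaced out in a matrix that they secrete. Type II, IX and XI collagens form its fibrils, aggrecan draws in water, and small leucine-rich proteoglycans coat and space the fibrils. Before transplantation the organoids were cultured in a chondrogenic medium with insulin, ascorbic acid, BMP2, TGF-β1 and GDF5. A joint can differ from culture in daily rhythm, circulating hormones, load and oxygen. None of these was measured in either sample, and their part in the values below was not tested. The circadian clock is a loop in which CLOCK and ARNTL (BMAL1) switch on genes of the PER, CRY, REV-ERB and DEC families, whose products then switch the loop off again.

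Every condition was 1 sample, and the 2 samples compared came from different libraries. No test of the conditions was therefore possible and no p value was computed. Values are reads per 1000000 reads (CPM) in the summed profile of the 320 cells, a fold or log2 ratio is after over before transplantation with 1 CPM added for the log2 ratio, and intervals are exact 95% intervals that cover counting error only. CPM are not divided by transcript length, so levels of different genes are not compared. Genes were counted where the level reached 50 CPM before or after transplantation and 25% of the cells, before or after, had a read, and "rose" and "fell" are used for a log2 ratio beyond 1, which is 2-fold.

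The summed profiles held 21293959 reads before and 29855420 reads after transplantation. Median reads per cell were 58413.5 and 80335.5, while the median number of genes per cell was 3765 before and 2594.5 after, so that the more deeply read cells showed fewer genes. The graft was digested in RPMI and the cultured organoid in DMEM holding TGF-β1, GDF5, BMP2, insulin and ascorbic acid. The culture medium of the organoid held these additions as well. These differences, like the library, cannot be told apart from transplantation. The hour at which each sample was taken is not given in the sources used here. No cell barcode was shared by the 2 sets of 320 cells. In 300 of the 320 cells before transplantation, which were deposited in a second matrix as well, 0 counts differed over 13950 genes.

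The graft carried the donor's reporter. The EGFP transcript had reads in 100% of the cells of both samples, at 2354 CPM before and 5504 CPM after, and was at 0 in cyAC and in cyFT. At least 3 of 7 listed chondrocyte markers were read in 319 of 320 cells before and in 320 of 320 after. Markers of blood and vessel cells were low in both samples. Summed pan-immune markers gave 0.423 and 1.41 CPM, macrophage markers 4.32 and 4.56 CPM, endothelial markers 0.329 and 0.469 CPM, and no cell held 3 markers of any of these lists. Pericyte and smooth muscle markers summed to 55.6 and 43.3 CPM, and at least 3 of them were read in 11 cells before and 4 after. The 7 T cell markers summed to 13.7 and 18.8 CPM, and 3 of them were read in 5 cells before and 14 after. Listed erythroid markers were at 0 in both, and summed neural markers stood at 62.0 CPM before and 8.24 CPM after, with 3 of them in 7 cells and in 0 cells. The 8 synovial fibroblast and lining markers summed to 473.9 CPM before and 509.3 CPM after, and at least 3 of them were read in 103 and 49 cells. The 7 osteoblast markers summed to 33490 and 59200 CPM, of which *SPARC*, which chondrocytes express as well, gave 33480 and 59190 CPM, and at least 3 of them were read in 6 cells before and 0 after.

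Of 14020 listed genes, 3421 passed the filter. After transplantation 279 of them rose, which is 8.16% of the genes that passed, and 756 fell, which is 22.1%. Changes of at least 4-fold were counted for 106 genes upward and 145 downward. The median log2 ratio of all these genes was −0.39 and the middle 50% lay between −0.92 and 0.16, so a list with a median near −0.39 moved no more than the profile as a whole. The imbalance between rises and falls depended on the scaling. Rises made up 27% of the calls with CPM, 44.8% with edgeR's TMM factors, 46.7% when the genes of the matrix lists were left out of the total, and 55.6% when ratios were centred on the median gene, which gave 465 rises (13.6%) and 371 falls (10.8%). Where falls outnumbered rises in a list, the number of falls after centring is therefore given as well. The rule that a gene may pass through its higher sample alone matters for small genes, since 159 of the 279 that rose were below 50 CPM before and 415 of the 756 that fell were below 50 CPM after.

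**Figure D1:**
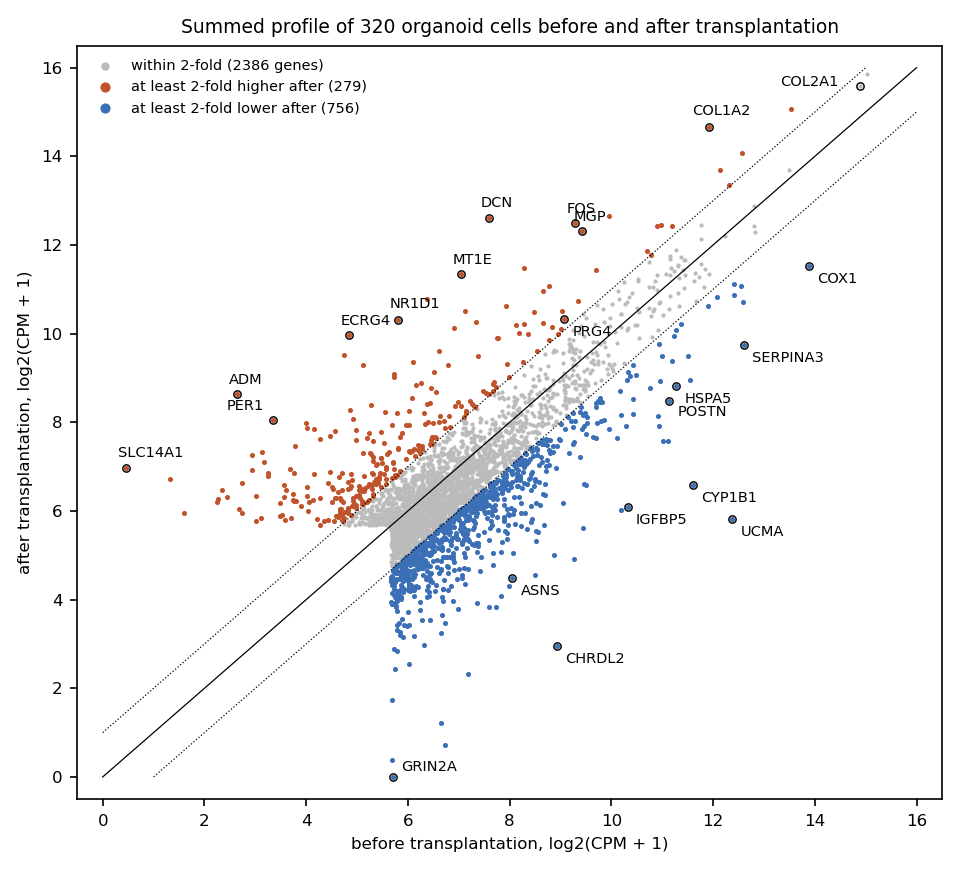
Each point is 1 of the 3421 genes that passed the filter, with log2(CPM + 1) of the 320 summed cells before transplantation on the horizontal axis and after it on the vertical axis; the solid line marks equal levels and the dotted lines a log2 ratio of 1 either way. The 279 genes that rose (orange) include *SLC14A1*, *ADM*, *ECRG4*, *DCN*, *PER1* and *NR1D1*, and the 756 that fell (blue) include *UCMA*, *CHRDL2*, *CYP1B1* and *IGFBP5*.

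The comparison had 4 genes as its markers, chosen with earlier results of these data known, and their values are given as a description. *SLC14A1*, a urea transporter, stood at 0.376 CPM before transplantation (8 reads, 0.162 to 0.740) and at 124.9 CPM after it (121.0 to 129.0), a log2 ratio of 6.52. It had a read in 1.88% of cells before and in 53.1% after. *ECRG4*, which encodes a secreted peptide precursor abundant in articular chondrocytes, went from 27.6 CPM (25.4 to 29.9) to 1001 CPM (989.4 to 1012), a ratio of 5.13, with reads in 34.4% and 94.1% of cells. Both genes were thus rare or patchy in the cultured organoid and common in the graft. *DCN*, decorin, rose from 193.3 CPM (187.4 to 199.3) to 6282 CPM (6254 to 6311), 32.5-fold, and its median over single cells rose from 59.3 to 5527 CPM. The level of *DCN* after transplantation lay between those of cyFT, 3890 CPM, and cyAC, 6515 CPM, whereas *ECRG4* stayed below its 4341 CPM in cyAC.

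*UCMA* had the lowest log2 ratio of the genes that passed the filter, a rank that rests on the 1 CPM added, since with 0.1 CPM added *GRIN2A* (−9.00), *PZP* (−7.16) and *LPAR5* (−6.97) lay lower. *UCMA* encodes a vitamin K-dependent protein secreted by young chondrocytes. Its level was 5324 CPM (5294 to 5356) before and 55.2 CPM (52.5 to 57.9) after, a log2 ratio of −6.57, and reads were found in 88.1% of cells before and 10.3% after. In cyAC it stood at 27.6 CPM and in cyFT at 2.89 CPM, both closer to the graft's level than the cultured organoid was.

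The remaining genes among the 15 that rose most were of mixed kinds. *ADM*, the vasodilator peptide adrenomedullin, rose from 5.21 to 394.8 CPM (5.99), and *FAM107A*, an actin-binding protein gene, from 1.5 to 104.0 CPM (5.39). In cyAC *ADM* was at 3.89 CPM and *FAM107A* at 6.0 CPM. *CILP*, cartilage intermediate layer protein, rose from 25.7 to 733.6 CPM (4.78), next to 691.2 CPM in cyAC. The others were *PER1*, *NR1D1*, *HLF* and *TEF* of the clock, *ID2*, *CDO1*, *MT1E*, *IFI6* and *HES1*, a target of Notch signaling that rose from 4.09 to 87.2 CPM (4.12).

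The genes that fell most, next to *UCMA*, included several whose reads nearly vanished. *CHRDL2*, a chordin-like BMP antagonist of cartilage, fell from 488.2 to 6.73 CPM (−5.98). *GRIN2A*, a glutamate receptor subunit, fell from 50.9 CPM to 0 reads, and against the floor of 3 reads it was at least 506.6-fold lower. *LPAR5*, a lysophosphatidic acid receptor, fell from 50.3 to 0.302 CPM and *SEMA7A*, a membrane-anchored semaphorin, from 100.1 to 1.34 CPM. Genes of higher level fell too. *CYP1B1*, a cytochrome P450 monooxygenase induced through the aryl hydrocarbon receptor, went from 3109 to 95.2 CPM (−5.02), with reads in 81.9% and 11.9% of cells. *PZP* went from 105.5 to 0.636 CPM (−6.02), but it is a close relative of *A2M*, and reads of such pairs could be divided between them. *S100A2*, *GFAP*, *PCSK1*, *SLC7A2* and the carboxypeptidase M gene, whose symbol is *CPM*, fell with log2 ratios between −4.87 and −3.87, and *APOE*, *IGFBP5* and *CHI3L1*, also among the 15 lowest, are described with their lists. Reads of the carboxypeptidase M gene were found in 82.2% of cells before and 46.2% after, whereas *PCSK1*, a prohormone convertase, had 30.6% and 1.25%.

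**Figure D2:**
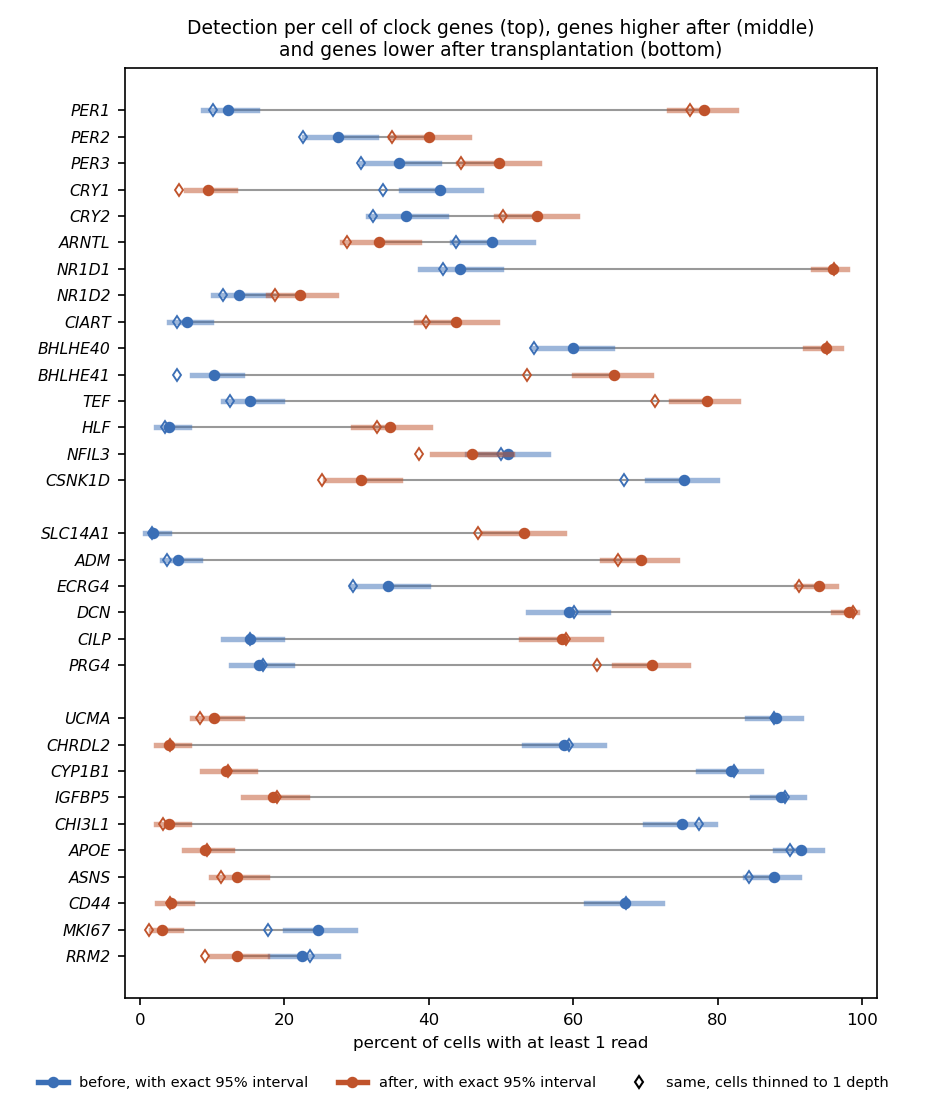
Percent of the 320 cells with at least 1 read of each gene before (blue) and after transplantation (orange), with exact 95% intervals that cover counting error only; open diamonds give the share after every cell was thinned to 30452 reads. *PER1* goes from 12.2% to 78.1% and *UCMA* from 88.1% to 10.3%, and after thinning *PER1* is at 10.1% and 76.1%.

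Clock genes were higher in the graft, most of them repressors of the loop. Of 18 listed genes of the core loop and its repressors 17 were in the matrix and 10 passed the filter, and of these 8 rose and 1 fell, with a median log2 ratio of 2.61. Counting all 17, including genes too low for the filter, 13 were higher after transplantation by any amount and 3 lower, against 39.3% higher and 60.7% lower of all 12269 genes with a read. Low clock genes such as *PER1* passed the filter through the graft alone, so the count of rises is a description. Their summed level was 532.9 CPM before and 3360 CPM after, and 97.2% of the graft's cells spent a larger share of their reads on the list than the upper quartile of cells before transplantation.

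*PER1*, a repressor that is also switched on directly by glucocorticoid and cAMP, went from 9.11 CPM (7.87 to 10.5) to 263.5 CPM (257.7 to 269.4), 28.9-fold. *NR1D1*, the REV-ERBα nuclear receptor that represses *ARNTL*, went from 55.2 CPM to 1257 CPM, 22.8-fold, and was read in 44.4% of cells before and 95.9% after. *BHLHE40* and *BHLHE41*, the DEC1 and DEC2 repressors, rose from 119.6 to 1112 CPM (3.21) and from 3.76 to 73.1 CPM (3.96). Reads of these 4 repressors were found in 10.3% to 60% of cells before and in 65.6% to 95.9% after. *CIART*, another repressor of the loop, rose from 5.68 to 98.0 CPM (3.89). Rises were smaller for *CRY2* (2.00), *PER2* (1.72) and *PER3* (1.28), and *PER2* had reads in 27.5% of cells before and 40% after.

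The activators of the loop did not follow. *ARNTL* stood at 62.0 CPM before and 59.2 CPM after (−0.07), *CLOCK* at 6.01 and 7.13 CPM and *NPAS2*, which can replace CLOCK, at 17.4 and 18.8 CPM, the last 2 below the filter. *CRY1*, a repressor that peaks late in the cycle, had 36.8 CPM before and 5.06 CPM after and was too low for the filter as well. *CSNK1D*, a kinase that marks PER proteins for turnover, fell from 86.7 to 39.2 CPM (−1.13) but was within 2-fold after centring. Of the PAR bZIP factors, which carry the rhythm to output genes, *TEF* rose from 7.80 to 160.1 CPM, 20.5-fold, and *HLF* from 2.02 to 61.4 CPM (4.37), while their competitor *NFIL3* stood at 85.4 and 78.0 CPM (−0.13).

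The rise was found within single cells. At least 3 of *PER1*, *NR1D1*, *CIART*, *BHLHE41*, *TEF* and *HLF*, 6 genes chosen after their values were seen, were read together in 22 of 320 cells (6.88%) before and in 278 (86.9%) after. With cells thinned to an equal depth the shares were 3.82% and 84.8%. In cyAC, which the sources used here do not tie to the recipients, and in cyFT, which came from animals given no graft, the same count gave 15.3% of cyAC and 31.6% of cyFT cells at lower depth, and *NR1D1* stood there at 131.8 and 289.0 CPM. Since these genes were picked for being high in the graft, the counts are a description only, and whether the samples were taken at the same hour cannot be told from the sources used here.

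**Figure D3:**
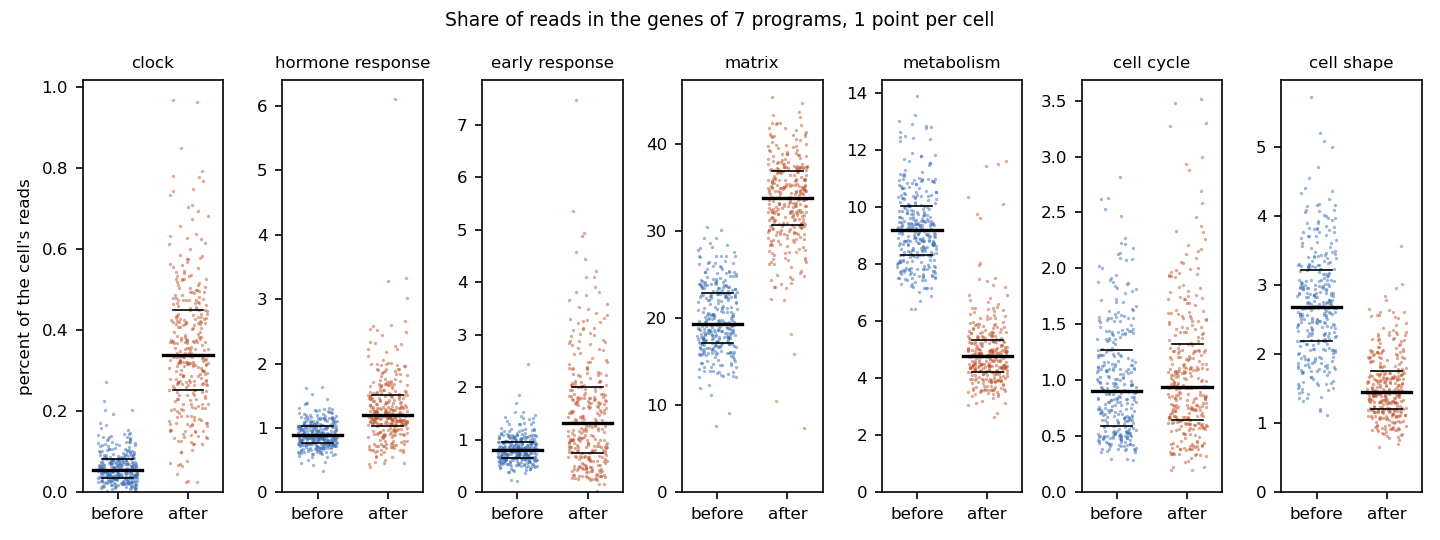
Percent of a cell's reads that fell in the listed genes of 7 programs, 1 point per cell, before (blue, 320 cells) and after (orange, 320 cells); the thick line is the median and thin lines are the quartiles, and each panel has its own scale from 0. The median of the clock program goes from 0.0565% to 0.339%, that of the matrix from 19.3% to 33.8%, and that of metabolism from 9.20% to 4.76%. The cell cycle panel includes the fetal growth list, which holds most of its reads through *IGF2* and *DLK1*, and its median goes from 0.903% to 0.945%. Cells of 1 library are not replicates.

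Genes that answer to hormones moved in part. Of 25 listed glucocorticoid-responsive genes 22 were in the matrix and 11 passed the filter, of which 5 rose and 1 fell, with a median of 0.92. Over all 22 the directions were split, 11 higher and 10 lower. *TSC22D3* (GILZ), a mediator of the anti-inflammatory action of glucocorticoid, rose from 149.1 to 354.8 CPM (1.25), *DUSP1*, a phosphatase that turns off MAP kinases, from 325.8 to 1021 CPM (1.64), and *NFKBIA*, the inhibitor of NF-κB, from 20.7 to 98.1 CPM (2.19). *CDKN1C*, a cell cycle inhibitor, rose from 34.3 to 108.8 CPM (1.64). *FKBP5*, a classic induced gene of the receptor, was at 4.79 and 4.46 CPM, *SGK1* at 218.5 and 217.0 CPM, and the receptor gene *NR3C1* at 134.9 and 107.4 CPM (−0.33). *ERRFI1*, a feedback inhibitor of the EGF receptor, fell from 244.2 to 113.8 CPM (−1.10), a fall that was within 2-fold after centring. In cyAC, *ERRFI1* was at 1179 CPM.

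Of 5 listed metallothionein and zinc transport genes in the matrix 2 passed the filter, and 1 rose and 1 fell. Metallothioneins are small proteins that hold zinc and are induced by metals and by glucocorticoid. *MT1E* rose from 130.7 to 2592 CPM (4.30), and *MT2*, whose values were looked up after the list was drawn up under its other symbol, from 139.2 to 1454 CPM (3.37). Members of this family are near copies of each other, so the division of reads between them is uncertain. The zinc importer *SLC39A14* fell from 730.1 to 277.1 CPM (−1.39).

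Of 16 listed genes of the cAMP and CREB response 15 were in the matrix, 7 passed the filter, 5 rose and none fell, next to 8.16% of all genes risen and 22.1% fallen. Of the 15, 10 were higher by any amount and 5 lower, against 39.3% and 60.7% of all genes with a read. *PTHLH* and *FOSB* passed the filter through the graft alone, so their rise was set by the filter. *PTHLH*, the parathyroid hormone-related protein that keeps chondrocytes from hypertrophy, rose from 7.98 to 136.1 CPM (3.93). *NR4A1*, an orphan nuclear receptor induced by cAMP, rose from 86.5 to 436.9 CPM (2.32), though the share of cells with a read was 50.9% before and 49.7% after. The lowest non-zero count of *NR4A1* was 1 read before and 8 reads after, so small counts in the graft may have been set to 0 by the authors' correction, and its part in this share was not tested.

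In the IGF axis 1 of 7 genes that passed rose and 3 fell (3 after centring), the other three staying within 2-fold. *IGF2*, a fetal growth factor, rose from 826.8 to 2788 CPM (1.75) and was read in 99.4% and 100% of cells, against 517.7 CPM in cyAC. The binding proteins *IGFBP5* (1278 to 66.8 CPM, −4.24), *IGFBP3* (691.5 to 48.1 CPM, −3.82) and *IGFBP4* (413.1 to 80.8 CPM, −2.34) fell, whereas *IGFBP7*, a related matrix protein, was at 1352 and 1920 CPM (0.51). Other genes of the fetal growth list did not move alike, since *CDKN1C* and *PLAGL1* rose and *DLK1* was at 4801 and 4699 CPM. *DLK1*, a membrane protein of fetal tissue, stood at 16.7 CPM in cyAC, so the graft stayed far above cyAC for *DLK1*.

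Immediate early genes rose in number and level. Of 14 that passed the filter 8 rose and 2 fell (median 2.02), and of all 17 in the matrix 13 were higher. The summed level was 4173 CPM before and 12510 CPM after. *FOS* and *JUN*, which pair as AP-1, rose from 622.6 to 5742 CPM (3.20) and from 242.5 to 1587 CPM (2.71), *EGR1* from 28.1 to 309.0 CPM (3.41), and *FOSB* from 4.41 to 78.5 CPM (3.88). The quartiles of *FOS* over the graft's cells were 1068 and 9079 CPM, a wide spread between single cells. *FOSL1*, a FOS relative with a slower response, fell from 100.2 to 11.6 CPM (−3.01). Enzymatic digestion of tissue is known to raise early genes, and its part in these values was not tested. Of 6 heat shock genes, 2 fell (2 after centring) and none rose (median −0.69), next to 22.1% of all genes fallen and a median of −0.39. In cyAC, digested in the same medium as the graft, *FOS* was at 754.1 CPM and *EGR1* at 141.1 CPM. The early-gene list summed to 5226 CPM in cyAC and 8050 CPM in cyFT. The paper gives ranges of enzyme and digestion time, so the same medium need not mean the same digestion.

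The matrix took a larger share of the reads. All 159 listed matrix genes together held 20.1% of reads before and 33.5% after, and the per-cell median went from 19.3% to 33.8%. Within this program 120 genes passed the filter, of which 33 rose and 26 fell, next to 8.16% of all genes risen and 22.1% fallen.

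Fibril collagens took more reads. All 6 listed cartilage collagens in the matrix were above their level before transplantation, but only *COL11A2* (2012 to 5586 CPM, 1.47), *COL9A1* (5108 to 10500 CPM, 1.04) and *COL9A2* (1752 to 3518 CPM, 1.01) rose by 2-fold, the last being the gene just inside the limit. In cells with *COL2A1* and without *COL1A1*, *COL9A1* (0.93) and *COL9A2* (0.90) were both below 2-fold. *COL2A1*, the main collagen of hyaline cartilage, was at 30160 CPM before and 49490 CPM after (0.71), with reads in 93.8% and 97.5% of cells. The fibrous collagens *COL1A2* and *COL3A1* rose as well. *COL3A1* went from 11790 to 34540 CPM (1.55), and *COL1A2* from 3861 to 25850 CPM (2.74), with a per-cell median of 285.5 CPM before and 22910 CPM after. *COL1A1*, which encodes the other chain of type I collagen, stood at 7016 and 10170 CPM, and 24.1% of cells before and 16.9% after had a read of it. The share of cells with *COL1A1* and the level of *COL1A2* thus went in opposite directions, and the lowest non-zero count of *COL1A1* was 277 reads before and 497 after. Smaller counts of such high genes may have been set to 0 by the authors' correction for diffused RNA, and its part in this share was not tested. In cyAC *COL1A2* was at 1962 CPM and in cyFT at 18280 CPM.

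Most small leucine-rich proteoglycans rose. Of 10 that passed, 8 rose and 1 fell (median 1.57), and their summed level went from 13070 to 43680 CPM, next to 47720 CPM in cyAC. Beside *DCN*, *OMD*, osteomodulin, rose from 37.6 to 335.3 CPM (3.12), *PRELP*, a heparan sulfate-binding member, from 400.3 to 2008 CPM (2.32), and *CHAD*, chondroadherin, from 356.4 to 1436 CPM (2.01). *BGN*, biglycan, and *FMOD*, fibromodulin, rose from levels that were already high, from 4519 to 13140 CPM (1.54) and from 6077 to 17290 CPM (1.51). *EPYC*, epiphycan of the growth cartilage, was the exception and fell from 53.9 to 14.6 CPM (−1.81). Aggrecan, *ACAN*, was at 3479 and 5559 CPM (0.68), and the hyaluronan receptor *CD44* fell from 226.3 to 15.8 CPM (−3.76), with reads in 67.2% and 4.38% of cells.

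Other glycoproteins were divided. Of 24 that passed, 5 rose and 8 fell. Next to *CILP*, *MGP*, the vitamin K-dependent inhibitor of calcification, rose from 688.3 to 5092 CPM (2.89), and its share of cells from 57.2% to 98.1%. *POSTN*, periostin, which is found in fibrous and healing tissue, fell from 2248 to 354.8 CPM (−2.66), and *MFAP4*, a microfibril protein, from 1937 to 282.0 CPM (−2.78). *POSTN* was at 3.72 CPM in cyAC. *EFEMP1* (−2.47) and *FBLN2* (−2.23), fibulins of elastic fibres, fell too, and after centring 6 genes of this list fell.

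Secreted factors of cartilage changed in both directions, with 8 of 15 risen and 5 fallen (3 after centring). *SCRG1*, a small peptide of mesenchymal cells and cartilage, rose from 994.7 to 6445 CPM (2.69). *CRISPLD1* (14.9 to 251.6 CPM, 3.99) and *HHIPL2* (15.1 to 231.4 CPM, 3.85) rose from levels in about 15% of cells to 65.9% and 78.1% of cells. *PRG4*, the lubricant of the joint surface, rose from 537.9 to 1289 CPM (1.26) and from 16.6% to 70.9% of cells, and stood at 4986 CPM in cyAC. In the cells with *COL2A1* and without *COL1A1* its ratio was 0.87, below 2-fold. *CHI3L1*, a chitinase-like glycoprotein of stressed chondrocytes, fell from 1168 to 63.9 CPM (−4.17), and reads were found in 75% and 4.06% of cells. Shares of cells for high genes such as *CHI3L1*, *CD44*, *APOE* and *PRG4* carry a limit, since small counts may have been set to 0 by the authors' correction. The lowest non-zero count after transplantation was 9 reads for *CHI3L1* and 8 for *CD44* and *APOE*, and before it 22 reads for *PRG4*, and the part of the correction in these shares was not tested. *CNMD*, the angiogenesis inhibitor chondromodulin of young cartilage, fell from 899.6 to 351.2 CPM (−1.35, and −0.97 after centring).

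**Figure D4:**
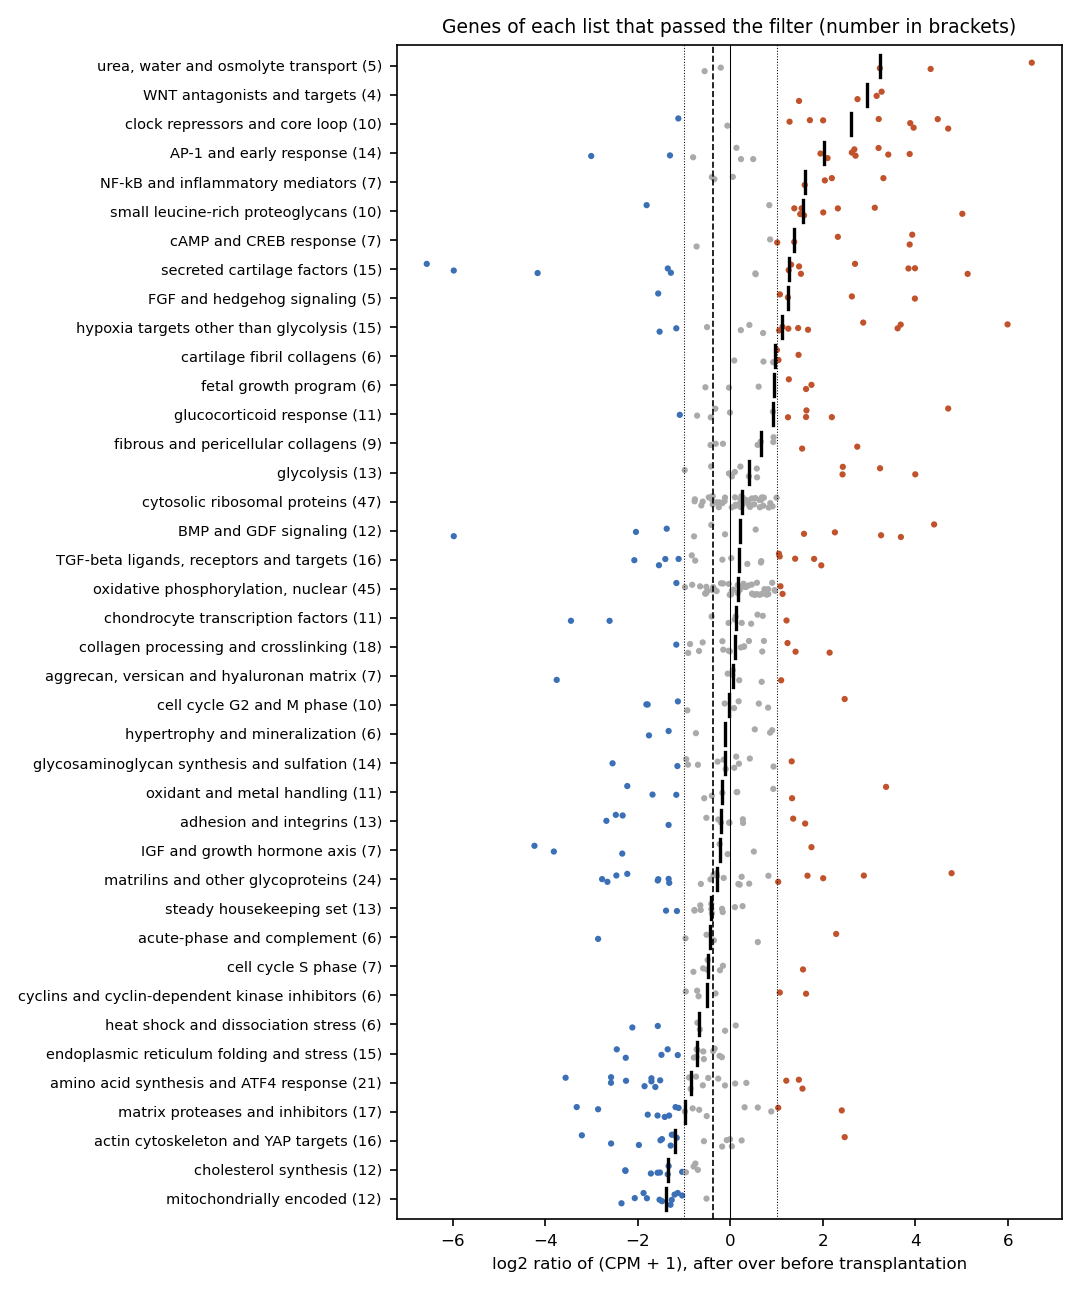
Log2 ratio after over before transplantation for lists with at least 4 genes that passed the filter, 1 point per gene (orange for genes that rose, blue for genes that fell, grey for the rest), with the list's median as a thick bar; the dashed line is the median of all 3421 genes (−0.39) and dotted lines mark 2-fold. Medians of these lists run from 3.23 for urea, water and osmolyte transport to −1.39 for mitochondrially encoded genes, and genes that passed through 1 sample alone are included. Among those are all 3 genes that rose in the urea, water and osmolyte list.

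Genes that process or degrade the matrix, or inhibit its breakdown, differed by list. Of 18 collagen-processing genes 3 rose and 1 fell, with a median of 0.11, next to 8.16% of all genes risen, 22.1% fallen and a median of −0.39. *LOXL3*, a lysyl oxidase that crosslinks collagen, rose from 215.1 to 955.0 CPM (2.15), and *PLOD2*, a lysyl hydroxylase, fell from 2661 to 1182 CPM (−1.17), a fall within 2-fold after centring. Of 17 proteases and inhibitors 8 fell (5 after centring) and 2 rose, with a median of −0.99. Of the 8 that fell, 6 encode inhibitors and the other two, *CTSL* and *CTSD*, cathepsins. *SERPINA3*, an inhibitor of chymotrypsin-like proteases, fell from 6219 to 854.5 CPM (−2.86), and *TIMP4*, *TIMP3* and *TIMP2*, inhibitors of metalloproteinases, fell by 3.32, 1.42 and 1.33 on the log2 scale, while *TIMP1* rose (1.03, and 0.98 with thinned cells). After centring *TIMP2* (−0.94) and *CTSD* (−0.80) were within 2-fold, as was *TIMP3* in cells with *COL2A1* and without *COL1A1* (−0.85). *CTSK*, the collagen-cleaving cathepsin K, rose from 21.3 to 117.2 CPM (2.41). Among genes of glycosaminoglycan synthesis *UGDH*, which makes the UDP-glucuronate for hyaluronan and chondroitin chains, fell from 296.2 to 49.8 CPM (−2.55).

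Of 11 chondrocyte transcription factors that passed the filter 1 rose and 2 fell (2 and 2 after centring), near the 8.16% and 22.1% of all genes. By any amount, 14 of the 19 factors in the matrix were higher and 4 lower, against 39.3% and 60.7% of all genes with a read. The list summed to 4348 CPM before and 2623 CPM after, and the fall of *NFATC2* alone exceeded this difference. *SOX9*, the master factor of cartilage, was at 482.8 and 784.8 CPM (0.70). *NFATC2* and *NFATC1*, calcineurin-dependent factors, fell from 2070 to 188.6 CPM (−3.45) and from 101.1 to 15.7 CPM (−2.61), although *NFATC2* was at 3599 CPM in cyAC, above both organoid samples. Of the hypertrophy genes, *COL10A1* was at 0 reads before and 5.73 CPM in 4.38% of cells after, below the filter. The hypertrophy list as a whole summed to 1698 CPM before and 1036 CPM after, next to 1453 CPM in cyAC. Of the 6 hypertrophy genes that passed, none rose and 2 fell, but after centring 2 rose and 1 fell, and of the 17 in the matrix 8 were higher and 7 lower.

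In the TGF-β list 5 of 16 genes that passed rose and 4 fell (7 and 3 after centring), with a median of 0.19, and its falls, like those of the BMP list, lie near the 22.1% of all genes. *TGFB1* fell from 414.1 to 97.3 CPM (−2.08), *TGFB3* rose from 22.2 to 89.4 CPM (1.96), and *INHBA*, an activin subunit, fell from 735.3 to 251.2 CPM (−1.55). In the BMP list 5 of 12 genes that passed rose and 3 fell (5 and 2 after centring), and of all 21 in the matrix 11 were higher and 10 lower. The ligand *BMP6* fell from 53.9 to 12.3 CPM (−2.04) and the receptor *BMPR2* from 88.0 to 33.2 CPM (−1.38, and −0.99 after centring), while the ligand *BMP2* rose from 44.2 to 135.2 CPM (1.59). The 4 inhibitors of DNA binding, direct targets of BMP signals, rose. *ID2* went from 81.5 to 1746 CPM (4.40), *ID1* from 67.3 to 652.7 CPM (3.26), *ID3* from 12.7 to 175.1 CPM (3.69) and *ID4* from 50.4 to 245.0 CPM (2.26). *ID1* was read in 17.8% of cells before and 71.9% after. The organoid before transplantation had been both cultured and digested in medium with added BMP2 and GDF5, and the graft was digested without them. The ID genes were thus higher in the sample harvested without these additions, and the part of either medium in this was not tested. From the WNT list 4 genes passed, all antagonists, and all but *FRZB* passed through their level in the graft alone, so that their rise was set by the filter. They were *WIF1* (11.8 to 122.3 CPM, 3.27), *DKK3* (29.1 to 268.6 CPM, 3.16), the lipase *NOTUM* (10.9 to 78.6 CPM, 2.75) and *FRZB* (519.7 to 1455 CPM, 1.48). Of the whole WNT list, 11 of 17 genes were higher and 6 lower. *FGFR3*, the FGF receptor that restrains cartilage growth, rose from 75.8 to 472.8 CPM (2.63), and *DUSP6*, a feedback phosphatase of the pathway, from 6.62 to 120.0 CPM (3.99), while *SPRY2*, another feedback inhibitor, fell (−1.56).

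Metabolic genes gave up reads as a program, from 9.35% to 4.99% of the total, and the fall was concentrated in a few lists. Mitochondrially encoded genes accounted for most of it. Of 12 that passed, 11 fell (6 after centring), the 13 listed together went from 55140 to 19740 CPM, and *COX1*, a subunit of cytochrome c oxidase, went from 15070 to 2943 CPM (−2.36). The sum in cyAC was 36040 CPM. Nuclear genes of oxidative phosphorylation did not fall with them, since 42 of 45 were within 2-fold, 2 rose and 1 fell, with a median of 0.16, and after centring 11 rose and none fell. Mitochondrial reads are also a sign of cell state and damage at dissociation, and the authors removed cells above a mitochondrial threshold that is not named, whose part in this difference was not tested.

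Cholesterol synthesis was lower as a whole. All 16 genes in the matrix were below their level before transplantation, 8 of 12 that passed fell (5 after centring), and the summed level went from 3579 to 1347 CPM, below the 2246 CPM of cyAC. *IDI1*, an isomerase of the pathway, fell from 162.6 to 32.9 CPM (−2.27), and *INSIG1*, the sterol sensor's partner, from 602.2 to 182.0 CPM (−1.72). *APOE*, an apolipoprotein that carries cholesterol out of cells, fell from 614.6 to 29.0 CPM (−4.36), and was read in 91.6% of cells before and 9.06% after. Amino acid synthesis and other targets of ATF4 fell for 9 of 21 genes, the same number after centring, and rose for 3, and 20 of 25 in the matrix were lower. The rises were those of *STC2*, a secreted stanniocalcin (1.56), *DDIT3* (CHOP), a stress-induced transcription factor (1.48), and *CHAC1*, a glutathione-degrading enzyme (1.21, and 0.87 with cells thinned to equal depth). *ASNS*, asparagine synthetase, fell from 264.5 to 21.4 CPM (−3.56), the glutamine transporter *SLC1A5* from 247.4 to 40.5 CPM (−2.58) and the tryptophan tRNA ligase *WARS1* from 133.3 to 21.4 CPM (−2.58). In the endoplasmic reticulum the chaperone *HSPA5* (BiP) fell from 2475 to 449.6 CPM (−2.46), with 5 of 15 genes of its list fallen (3 after centring).

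The glycolysis list summed to 4898 CPM before and 6024 CPM after, 1.23-fold, and of its 16 genes in the matrix 12 were higher and 4 lower. Of 13 that passed, 4 rose and none fell. Regulators of phosphofructokinase were among them, *PFKFB3* (21.0 to 206.1 CPM, 3.24) and *PFKFB4* (3.80 to 75.7 CPM, 4.00), both of which passed the filter through the graft alone. Of 15 other hypoxia targets 9 rose and 2 fell (median 1.13), next to 8.16% of all genes risen and 22.1% fallen. By any amount 12 were higher and 3 lower, against 39.3% and 60.7% of all genes with a read. Of those that rose, *ADM*, *CA9* and *DDIT4* passed the filter through the graft alone, so their rise was set by the filter. *CA9*, a carbonic anhydrase of hypoxic tissue, rose from 8.50 to 115.5 CPM (3.62), and *DDIT4* (REDD1), an inhibitor of mTORC1, from 16.9 to 228.9 CPM (3.68). The sum of this list nevertheless went from 5084 to 4747 CPM, since *PLOD2* and *NDRG1* (702.6 to 242.3 CPM, −1.53), the stress-responsive gene, were high before transplantation and fell. Count and sum thus differ in direction for this list. Among genes of urea, water and osmolyte transport, *AQP3*, an aquaglyceroporin, rose from 22.8 to 222.8 CPM (3.23) and *CDO1*, cysteine dioxygenase on the way to taurine, from 6.67 to 153.2 CPM (4.33), beside *SLC14A1*. All 3 passed the filter through the graft alone, so their rise was set by the filter. Of the 11 genes of this list in the matrix 4 were higher by any amount and 5 lower. *SOD3*, the extracellular superoxide dismutase, rose from 51.9 to 543.9 CPM (3.37), and the peroxiredoxin *PRDX1* fell from 1367 to 290.4 CPM (−2.23).

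Few cell cycle genes were high enough to be called. The G2 and M list summed to 1165 CPM before and 984.1 CPM after, and the S-phase list to 830.3 and 646.7 CPM, and the genes that passed had medians of −0.02 and −0.49 beside the −0.39 of all genes. Of 50 genes of the G2 and M phases in the matrix 43 were lower after transplantation by any amount, and of 39 S-phase genes 31, against 60.7% of all genes with a read. Of 10 G2 and M genes that passed the filter 3 fell and 1 rose, and after centring 2 fell and 3 rose, so the direction of this count turns with the scaling. *MKI67*, which marks cycling cells, was at 18.7 CPM before and 1.54 CPM after, below the filter, with reads in 24.7% and 3.13% of cells. *RRM2*, a subunit of ribonucleotide reductase, was at 67.7 and 6.63 CPM. As a description only, at least 3 of 10 mitotic genes, which were chosen after their values were seen to be lower, were read together in 68 cells before (21.3%, 16.9 to 26.2%) and 10 cells after (3.13%, 1.51 to 5.67%). Thinned to equal depth these were 39 of 288 cells (13.5%) and 1 of 310 (0.323%). *HMGB2*, a chromatin protein counted with the G2 and M list, went against it and rose from 35.4 to 200.8 CPM (2.47), and *TYMS*, thymidylate synthase, rose from 38.1 to 115.2 CPM (1.57).

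Of 16 actin and YAP-related genes 9 fell (5 after centring) and 1 rose, and the summed level went from 22220 to 11950 CPM, against 20740 CPM in cyAC. *TAGLN*, transgelin of contractile cells, fell from 367.3 to 38.7 CPM (−3.21), and *ANXA1*, annexin A1, from 2971 to 495.9 CPM (−2.58). Of 13 adhesion genes 4 fell (3 after centring) and 2 rose, next to 22.1% of all genes fallen. *CDH11*, a cadherin of mesenchyme, fell from 342.2 to 52.5 CPM (−2.68), *ITGAV* from 1111 to 198.4 CPM (−2.48) and *ITGA5* from 366.0 to 71.9 CPM (−2.33), both chains of fibronectin-type receptors, whereas *ITGA10*, the chain of the collagen II receptor of chondrocytes, rose from 82.6 to 255.3 CPM (1.62).

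Immune genes moved unevenly in the allogeneic graft. Of 10 listed genes of MHC and antigen presentation in the matrix 8 were higher and 2 lower by any amount, and 3 passed the filter, of which 2 rose. *B2M*, the light chain of MHC class I, rose from 310.4 to 2874 CPM (3.21), with a per-cell median of 255.3 CPM before and 1658 CPM after, and *TAP1*, the peptide transporter, from 7.04 to 53.8 CPM (2.77). In cyAC *B2M* was at 1000 CPM and in cyFT at 1890 CPM. *IFI6*, an interferon-induced gene, rose from 33.5 to 625.2 CPM (4.18) and from 38.4% to 96.9% of cells. Only 3 of 15 interferon-response genes in the matrix passed the filter, of which *IFI6* alone rose, but all 15 were higher by some amount, and their sum went from 269.4 to 1129 CPM next to 350.9 CPM in cyAC. Of 18 NF-κB targets and inflammatory mediators 10 were higher and 8 lower, and of the 7 that passed 4 rose, among them *PTGS2*, the prostaglandin synthase COX-2, from 51.6 to 520.2 CPM (3.31). Acute-phase and complement genes went from 9285 to 6690 CPM in sum, and of 6 that passed 1 rose and 1 fell (median −0.44). The gene that rose was *CLU*, clusterin, from 437.8 to 2140 CPM (2.29), and the gene that fell was *SERPINA3*. Pan-immune and macrophage markers stayed at or below 4.56 CPM in sum beside these rises, and T cell markers at 13.7 and 18.8 CPM. Cytosolic ribosomal protein genes had 0 of 47 past 2-fold and a median of 0.26, but 10 of them rose after centring. Of 13 housekeeping genes set beside the rest 2 fell (1 after centring) and none rose, their median was −0.41 and their sum went from 4341 to 2910 CPM.

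**Figure D5:**
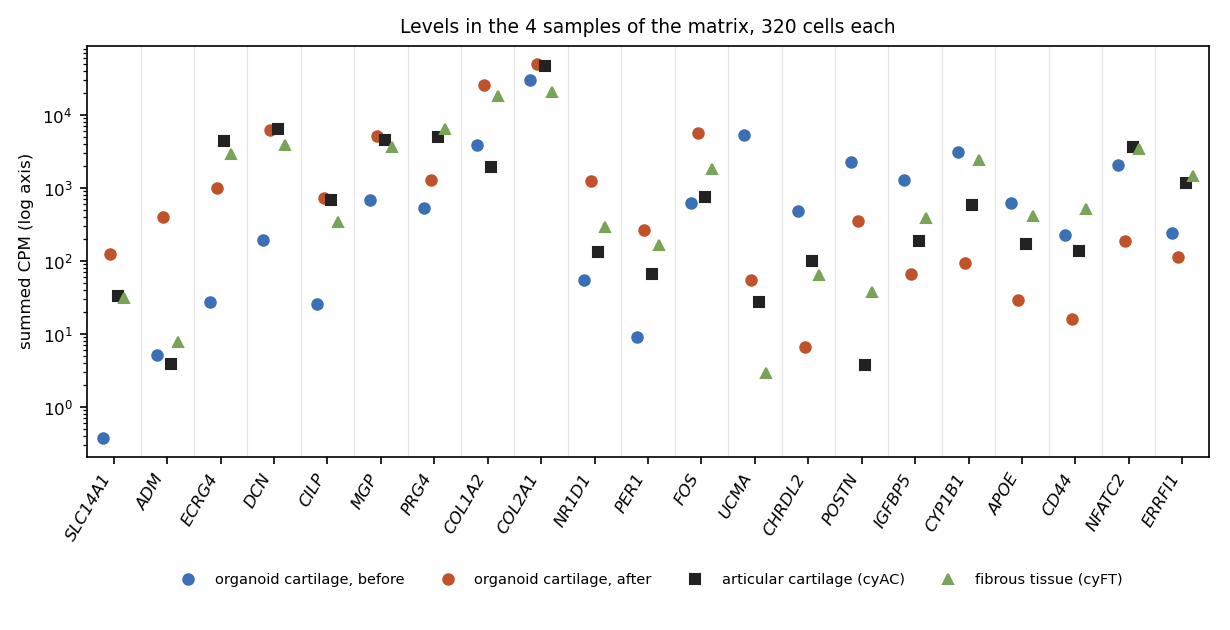
Summed CPM on a log axis of 21 genes in organoid cartilage before (blue circles) and after transplantation (orange circles), in articular cartilage (black squares) and in fibrous tissue of unfilled defects (green triangles), 320 cells and 1 sample each. *DCN*, *CILP* and *MGP* of the graft lie near cyAC, *ECRG4* and *PRG4* remain below it, *ADM*, *NR1D1*, *PER1* and *FOS* lie above it, and *NFATC2*, *APOE*, *CD44* and *ERRFI1* lie below it.

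Set beside cyAC, the graft's genes took up different positions. *DCN* (6282 CPM against 6515 CPM in cyAC), *CILP* (733.6 against 691.2 CPM), *CDO1* (153.2 against 131.6 CPM) and *MGP* (5092 against 4594 CPM) lay near it. *ECRG4* and *PRG4* had moved toward cyAC and remained below it, *IGF2* had moved away from its 517.7 CPM, and *APOE* (168.2 CPM in cyAC), *CD44* (137.7 CPM) and *IGFBP5* (190.5 CPM) had passed beyond it. For *PRG4* this order holds for the summed level, whereas the paper, looking at single cells, describes many graft cells with high *PRG4* relative to cyAC. The cyAC library was read at a median of 29699 reads per cell, which is shallower than either organoid sample, and these positions are descriptions of 1 sample each.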

How the data were processed

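TAS-Seq read counts were analysed for 320 pre-transplant and 320 post-transplant cyiPS-Cart cells, with 320 cyAC and 320 cyFT cells for levels. The authors deposited counts per gene and cell after assigning reads with Bowtie2 2.4.2 to Ensembl transcripts of Macaca_fascicularis_6.0, keeping cells above the inflection of the knee plot, separating hashtags, zeroing counts judged to be diffused RNA (only in genes whose highest log2 count exceeded 8), filtering on mitochondrial reads and reducing each sample to 320 cells. No step counting molecular identifiers is described, so counts were taken as reads. Labels name the samples pooled in each library, and cells of a pooled library were told apart by hashtag prefix as in the authors' code.

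Reads were summed per sample and divided by the total of 14020 genes. Intervals are exact Poisson, Clopper-Pearson and conditional binomial intervals. Cells were thinned to 30452 reads, the 10th percentile of the shallower sample, which left out 32 and 10 cells. Scrublet marked 26 and 8 cells as doublets, which were kept. Of gene symbols, 97% were found in a RefSeq table of another assembly, used for names only. No test across samples was run. The ratio step was tested on simulated data. Named genes were the 15 largest and 15 smallest ratios, the 4 markers with *PRG4*, and per list up to 6 genes past 2-fold with those that define it. The comparison, lists and this rule were chosen with earlier results of these data known. Listed genes without values here, such as *DBP*, *COMP* and *GAPDH*, were not analysed here, and 1 gene of a list is not reported here by name. Python 3.11.15, numpy 2.4.6, pandas 2.3.3, scipy 1.17.1, scanpy 1.11.5, R 4.3.3 and edgeR 4.0.16 were used.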

Additional observations from a re-analysis of the deposited data

How the results depend on the processing

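No paired analysis was possible because each condition was 1 sample. Of 233 named or listed genes past 2-fold, 0 changed direction under 17 other settings. A change of filter or of the call limit leaves a gene's ratio as it was, so such a setting could not turn a direction. Of 321 recomputed counts and shares, 274 stayed within 1.5 times the reported count or within the interval of the reported share. A filter of 10 CPM and 10% of cells gave 612 rises and 1393 falls, and one of 200 CPM and 50% gave 107 and 248. With the latter, calls in the reported direction numbered 3 for clock, glucocorticoid, BMP and hypoxia genes, 2 for cAMP, 1 for TGF-β, 5 for glycoproteins and ATF4, and 3 for endoplasmic reticulum genes. TMM factors gave 481 falls and 5 for proteases. Centring gave 465 rises and 371 falls, with 5 falls for proteases, cholesterol and actin genes, 6 for mitochondrial and 3 for endoplasmic reticulum genes. The mean of per-cell CPM gave 3 TGF-β rises. Leaving out genes with a lowest non-zero count of 10 or more left 4 proteoglycans and 4 mitochondrial genes. A call at a log2 ratio of 2 gave 106 rises and 145 falls, 0 for TGF-β, 2 for glucocorticoid, protease, mitochondrial, endoplasmic reticulum, cholesterol and actin genes, 3 for cAMP, and 4 for proteoglycans, glycoproteins, secreted factors, hypoxia and ATF4. Leaving matrix genes out of the total, a setting chosen with a filter on the mean after seeing the data, gave 474 rises. Medians over cells gave ratios of 5.99 for clock, 1.75 for matrix and 0.518 for metabolism. With at least 10 reads *SLC14A1* was found in 34.4% and *ECRG4* in 85.0% of graft cells, and thinned *SLC14A1* in 46.8%. Where a scaling or filter changed a count, the cause was not tested beyond the genes the setting itself removes.

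The limits are those of 1 sample per condition, with library, digestion medium and transplantation confounded. Intervals cover counting error only. Depth limits low genes most, and 32 of 39 S-phase genes and 40 of 50 G2 and M genes did not pass the filter.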

Other observations

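Of the genes that changed, 163 of the 279 that rose and 654 of the 756 that fell belonged to none of the lists, and some were named here after their values were seen. Among rises, *GADD45B*, a stress-induced growth arrest gene, went from 160.8 to 1228 CPM, and *ITM2A*, a membrane protein gene of early cartilage, from 97.4 to 782.3 CPM. *CRIM1*, a BMP-binding membrane protein gene, went from 109 to 622 CPM, and *WFDC1*, a secreted protein gene of the whey acidic protein family, from 8.5 to 109.2 CPM. Among falls, *AGT*, angiotensinogen, went from 2226 to 190 CPM, and *PENK*, the precursor of enkephalins, from 1954 to 240.5 CPM and from 86.9% to 34.1% of cells. *RBP4*, the retinol carrier, went from 724.9 to 95.5 CPM, *HBEGF*, an EGF receptor ligand, from 252.4 to 18.7 CPM, and *ACLY*, ATP citrate lyase of lipid synthesis, from 225.6 to 32.9 CPM. *PENK* had no reads in cyAC and *AGT* stood there at 10.6 CPM.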
